A study of Mus musculus with 135 samples.

Results

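The genes described here encode the proteins of the mitochondrial ribosome. They were taken by name: every gene whose symbol is Mrpl or Mrps, a number and at most 1 further letter, present in all 7 expression tables of the study. This gave 77 of the 24116 genes in the tables, 48 named for the large subunit (Mrpl) and 29 for the small subunit (Mrps). The rule used names and no measured value, but it was chosen with earlier results of these data known.

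The mitochondrial ribosome translates the few proteins encoded by mitochondrial DNA, all of them core subunits of the respiratory chain and ATP synthase. Its RNA comes from the mitochondrion, while every protein of it is encoded in the nucleus, made in the cytosol and imported. In early mouse embryos the genome is largely silent until the 2-cell stage, so transcripts of these nuclear genes are first those stored by the oocyte and then those of the embryo's own activated genome.

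The study measured RNA in mouse oocytes, embryos and embryonic stem cells in which Obox genes, a family of homeobox transcription factors, were deleted, knocked down or overexpressed. RNA was read with Smart-seq2, a full-length cDNA method for very small samples, in 107 of the 135 samples, and the authors' FPKM values (a read-fragment level corrected for transcript length and for library size) were used. The other 28 libraries, from chromatin, RNA polymerase II and genome sequencing assays, were not analysed here. The question put by the study's title and design is how OBOX regulates zygotic genome activation.

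The wild-type series held fully grown oocytes (FGO, 2 libraries), MII oocytes (2), early 2-cell embryos (2), late 2-cell embryos (3), 4-cell embryos (3) and blastocysts (2). It was set against Obox KO oocytes (2 FGO, 2 MII) and Obox mzKO embryos, which lack the maternal and the zygotic copies (2 early 2-cell, 3 late 2-cell, 3 collected when controls were at the 4-cell stage). Another 2 mzKO libraries matched to the blastocyst time are labelled as arrested 2-cell embryos. With them stood 3 single libraries of mzKO embryos at that time, named Obox157OE and Obox3OE, both labelled blastocyst, and Obox4OE, labelled arrested 2-cell embryos. A separate table held Obox mKO embryos, which lack the maternal copies (2 late 2-cell, 1 blastocyst), with their own wild-type controls (2 and 1). Single embryos of the genotypes Obox+- (3 early and 3 late 2-cell) and Obox-- (3 and 4) formed a further table.

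The knockdown table held late 2-cell parthenotes, activated without sperm, from oocytes injected with 25 uM of each siRNA: 3 libraries of siCtrl and 2 each of siObox12mix, siObox5 and siObox7. It also held embryos injected with siRNA as zygotes: siObox4 at the early 2-cell stage (2, with 2 controls), siObox3 at the late 2-cell stage (1, with 1 control), and siObox6 and siObox8 at the 4-cell stage (2 each, with 3 controls). Mouse embryonic stem cells (mESC), grown in 2i medium, overexpressed GFP (5), Obox3 (4) or Obox5 (4), and Nr5a2 KO and wild-type mESC overexpressed GFP, Obox3 or Obox5 (2 libraries each). Wild-type embryos given H2O or overexpressing Obox1, Obox2, Obox3 or Obox5 had 1 library each at the late 2-cell and blastocyst stages. The labels do not say whether libraries of a group came from separate collections or cultures, so the p-values below measure only the spread between libraries, which may be technical.

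Transcripts of Obox1, Obox2, Obox3, Obox4, Obox5 and Obox7 were at the level the labels imply in nearly every knockout library. Obox5 was at 2027 to 2907 FPKM in wild-type oocytes and at 0 to 1.02 in Obox KO oocytes, and mKO late 2-cell embryos had 0.284 and 0.606 against 131.3 and 58.6 in their controls. Single Obox-- embryos had Obox3 at 0 in all 7 libraries but kept Obox5 at 272 to 497 FPKM at the early 2-cell stage. The exception was 1 library labelled as arrested mzKO embryos, with Obox3 at 59.7 FPKM. Obox6 and Obox8 were still present in mzKO embryos. At the late 2-cell stage they were at 59.3 to 87.4 and 5.71 to 11.7 FPKM. Wild type had 219 to 471 and 67.7 to 140. At the 4-cell time mzKO embryos had 15.6 to 140 and 0.272 to 71.8, against 117 to 624 and 77.5 to 416. Single late 2-cell Obox-- embryos had 170 to 221 and 99.6 to 109. Obox genes have near-identical copies, so values of single copies are uncertain. The summed FPKM of a library lay between 37752 and 535770. Rn45s, the precursor of cytosolic ribosomal RNA, made up 0.114% to 71.45% of it. Read counts were not given, so the depth of each library is unknown. In such data, fewer cells and less RNA per cell cannot be told apart. Below, a gene "rose" or "fell" where limma gave a Benjamini-Hochberg adjusted p under 0.05 over all genes tested and the log2 fold change, on the log2(FPKM + 1) scale, was at least 1 in size. That scale understates the change of low genes.

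Late 2-cell mzKO embryos had less of 14 of the 77 mitochondrial ribosomal protein transcripts than wild-type embryos, and more of none. Of all 13989 genes tested, 15.5% were called, 10.7% lower, so the share of 18.2% of these genes that fell was above the background for falls. The median log2 fold change was -0.63 over the 77 genes and 0.01 over all genes, and 62 of the 77 fold changes were negative. By name, 7 of 48 large-subunit genes and 7 of 29 small-subunit genes fell. The 3 libraries of each genotype did not overlap for any of the 14. These genes were called on the same libraries, so this is no separate support.

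The largest change was that of Mrps12, which sits at the decoding centre and is the counterpart of bacterial S12. Its FPKM was 27.5, 15.1 and 19.7 in the wild-type late 2-cell libraries and 2.97, 1.14 and 1.14 in the mzKO libraries. All 3 mzKO libraries lay far below the lowest wild-type library. The log2 fold change was -3.01 (SE 0.57, adjusted p = 0.000394). Mrpl22, a protein that lines the exit tunnel for the nascent chain, was at 157, 68.2 and 60.1 FPKM in wild type and at 36.7, 13.04 and 3.32 in mzKO. Each genotype spread widely, with replicate 1 highest in both, and the groups stayed apart (log2 fold change -2.73, SE 0.71, adjusted p = 0.00783).

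Mrps18a, 1 of 3 mammalian relatives of bacterial S18 and a component of the large subunit despite its name, was at 56.9, 15.5 and 6.999 FPKM in wild type and at 5.72, 0.911 and 1.92 in mzKO. The lowest wild-type library was only a little above the highest mzKO library (log2 fold change -2.56, SE 0.79, adjusted p = 0.025). Its paralog Mrps18b fell from 64.6 ± 34.0 to 18.0 ± 7.52 FPKM (SD, n = 3 each, adjusted p = 0.0443), whereas Mrps18c was at 30.7 ± 27.8 in mzKO against 32.4 ± 23.0 in wild type and was not called (adjusted p = 0.866). The 3 relatives, which occupy different places in the ribosome, were thus called in 2 cases.

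The 250 bases upstream of the annotated start of these genes are shown for 3 members with large falls at both times or the largest fall at the late 2-cell time. They are RefSeq promoter windows of build GRCm38.p6, read 5′ to 3′ on the gene's strand: Mrps12 at chr7:28741822-28742071 on the minus strand, Mrpl22 at chr11:58171414-58171663 and Mrps18a at chr17:46110754-46111003, both on the plus strand. Capitals mark matches, on either strand, to CCGGAAG (an ETS-family core), the NRF1 motif, the YY1 motif or TAATCC (a core read by CRX- and OTX-type homeodomain proteins).
Mrps12: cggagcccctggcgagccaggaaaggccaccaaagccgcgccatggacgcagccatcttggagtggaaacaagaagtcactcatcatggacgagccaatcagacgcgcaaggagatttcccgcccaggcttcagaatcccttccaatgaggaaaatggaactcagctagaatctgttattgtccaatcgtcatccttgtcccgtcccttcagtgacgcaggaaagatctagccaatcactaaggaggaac
Mrpl22: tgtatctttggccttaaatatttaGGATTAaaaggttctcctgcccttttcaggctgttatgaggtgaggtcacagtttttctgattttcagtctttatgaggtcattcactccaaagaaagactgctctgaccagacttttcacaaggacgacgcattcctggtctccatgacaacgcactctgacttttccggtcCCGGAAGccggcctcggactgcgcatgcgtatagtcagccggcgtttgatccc
Mrps18a: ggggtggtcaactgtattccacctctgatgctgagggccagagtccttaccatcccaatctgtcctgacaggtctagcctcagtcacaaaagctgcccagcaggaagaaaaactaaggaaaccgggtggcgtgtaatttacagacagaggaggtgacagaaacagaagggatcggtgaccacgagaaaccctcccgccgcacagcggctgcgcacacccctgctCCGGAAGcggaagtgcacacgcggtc
The Mrps12 window held no exact match to any of the 4 strings. The Mrpl22 window held 1 ETS match and 1 TAATCC match on the minus strand, and the Mrps18a window 1 ETS match. Sites that differ from a string by 1 base were not counted. With the next 50 bases, which are not shown but are counted below, Mrps12 had 1 ETS match and Mrps18a 1 YY1 match besides.

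Of the 77 genes, 68 had an entry in that table, with 74 windows of 300 bases (250 upstream, 50 downstream). CCGGAAG was in 33.8% of these 74 windows and in 8.86% of all 32851 promoters, the NRF1 motif in 17.6% against 4.6%, and the YY1 motif in 6.76% against 0.852%. TAATCC was in 5.41% against 7.06%. The 11 windows of genes that fell in late 2-cell mzKO embryos held CCGGAAG in 5 cases (45.5%), against 31.7% of the 63 windows of genes not called. They held TAATCC in 2 cases (18.2% against 3.17%) and an exact match to the NRF1 string in none (20.6% of the others). The 13 windows of genes that fell at the 4-cell time held CCGGAAG in 30.8%, against 34.4% of the 61 others. They held TAATCC in 1 case (7.69% against 4.92%) and the NRF1 motif in 1 case (7.69% against 19.7%). These are counts of exact matches to those strings in a fixed window, with no test. A window without an exact match may still hold a site that differs from the string.

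Several other proteins of the tunnel and of the 2 subunit bodies fell in late 2-cell mzKO embryos. Mrps10, a small-subunit head protein, was at 35.8, 11.8 and 11.2 FPKM in wild type and 9.67, 0.833 and 0.847 in mzKO (log2 fold change -2.44, SE 0.65, adjusted p = 0.0102). Mrpl34 was at 72.8, 69.0 and 64.1 against 18.9, 14.8 and 10.1, with little spread within either genotype (log2 fold change -2.20, SE 0.55, adjusted p = 0.00554). Mrps30, a large-subunit protein despite its name, was at 42.7, 35.5 and 30.5 against 5.05, 10.6 and 11.7 (log2 fold change -1.94, SE 0.43, adjusted p = 0.00191). These 3 genes were lower in each mzKO library than in any wild-type library. Mrpl4 fell from a mean of 47.1 to 11.3 FPKM, Mrpl28 from 52.9 to 13.01, Mrps24 from 49.6 to 12.8, Mrpl38 from 13.7 to 4.28, Mrps15 from 18.4 to 6.67, Mrpl15 from 7.73 to 2.37 and Mrpl23 from 6.76 to 1.33.

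Members with known further roles were mostly not called at this time. Mrpl12, which also binds the mitochondrial RNA polymerase, was at 38.0 ± 3.17 FPKM in mzKO and 63.6 ± 37.9 in wild type (SD, n = 3 each, adjusted p = 0.505). Mrpl10, its stalk partner, was at 34.9 against 33.9. Mrpl45, which holds the ribosome at the inner membrane, was at 22.8 against 30.5, and Mrpl3, near the peptidyl transferase centre, at 16.02 against 14.3. Mrpl11, Mrpl37, Mrpl40, Mrpl41, Mrpl44, Mrps16, Mrps22, Mrps27, Mrps34 and Mrps36 were not called either, with log2 fold changes from -1.28 for Mrps16 to 0.15 for Mrps34. The highest fold change of the 77 was 0.74, for Mrps11 (52.1 against 31.3 FPKM, adjusted p = 0.459).

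The count at the late 2-cell stage rested on single libraries. It was 3 without wild-type replicate 1, 7 without mzKO replicate 2 and 4 without mzKO replicate 3, and 5 with a pseudocount of 0.1 and 8 with no filter on low values. The median of the 77 genes was -0.33 without wild-type replicate 1, against 0.03 over all genes. With all libraries these medians were -0.63 and 0.01. Leaving out a library lowers the power for every gene. The counts over all genes under these settings are not given here, so the member counts cannot be set against that background.

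At the 4-cell time 14 of the 77 genes were again lower in mzKO embryos and none was higher, against 24.6% of all genes called and 10.4% lower. The median log2 fold change was -0.79, against 0.16 over all genes, and 67 of 77 were negative. The 2 lists shared 8 genes, 57.1% of each: Mrpl15, Mrpl22, Mrpl23, Mrps10, Mrps18a, Mrps18b, Mrps24 and Mrps30. The 2 comparisons have no library in common, but both come from the same fit, with a shared estimate of each gene's spread. The 2 lists are thus not independent, and the overlap over all genes was not counted.

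Among the shared genes, Mrps18a was at 0.011, 12 and 10.6 FPKM in mzKO against 40.7, 47.6 and 17.8 in wild type (log2 fold change -2.66, SE 0.79, adjusted p = 0.0145). Mrps10 was at 6.24, 14.6 and 0.422 against 38.8, 31.6 and 21.4 (log2 fold change -2.50, SE 0.65, adjusted p = 0.00653). For Mrpl22 the values were 19.9, 49.8 and 18.5 against 177, 230 and 70.2 (log2 fold change -2.38, SE 0.71, adjusted p = 0.0144). In all 3 genes the lowest wild-type library, replicate 3, was above the highest mzKO library, replicate 2. Mrps30 fell from 49.7 ± 10.0 to 20.0 ± 2.60 FPKM (SD, n = 3 each, log2 fold change -1.26). Mrps12 was not called at this time, at 3.65, 15.7 and 13.8 in mzKO against 17.9, 31.4 and 13.4, and its libraries overlapped.

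The other 6 genes that fell at the 4-cell time encode proteins found only in mitochondrial ribosomes or counterparts of bacterial proteins. Mrpl53, a mitochondria-specific large-subunit protein, was at 4.17, 18.8 and 7.48 FPKM in mzKO against 61.0, 68.0 and 22.3 in wild type (log2 fold change -2.28, SE 0.58, adjusted p = 0.0052). Mrps31 fell from a mean of 11.6 to 1.74 FPKM, Mrpl55 from 22.8 to 4.31, Mrpl39 from 18.1 to 4.46, Mrps25 from 10.4 to 2.77 and Mrpl35 from 12.96 to 4.01. The libraries of the 2 genotypes overlapped for Mrps31, Mrpl39, Mrps18b and Mrps24 and stayed apart for the other 10 genes. Those 10 were called on the same libraries, so this is no separate support. Of the neighbours that overlap a member in the annotation, Nr2c2, beside Mrps25, fell as well, from 23.65 to 6.84 FPKM. Rsph9, beside Mrps18a, was at 4.45 FPKM in mzKO and 1.49 in wild type and was not called.

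The count at the 4-cell time also moved with single libraries: it was 5 without wild-type replicate 1, 2 without wild-type replicate 2, 5 without mzKO replicate 1 and 4 without mzKO replicate 3. It was 7 with a pseudocount of 0.1, 8 with libraries set to equal sums without Rn45s and 24 with replicate number within stage as a block. With equal sums all genes split into 2713 higher and 908 lower calls, against 1990 and 1450, and the member median was -0.42. For the other settings the counts over all genes are not given here.

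Stage markers differed between the same libraries. The summed FPKM of 10 oocyte markers was 1373 to 2376 in late 2-cell mzKO embryos and 818.4 to 1318 in wild type, and at the 4-cell time it was 365.6 to 749.3 against 136.1 to 225.6. The sum of 9 genes of the 2-cell stage was 220.3 to 365.7 against 88.46 to 186.6 and then 74.56 to 438.9 against 16.19 to 74.77. Other lists were lower in mzKO. The sum of 8 stem cell markers was 116.9 to 144.1 against 293.7 to 365.8 at the late 2-cell stage and 48.45 to 112.6 against 371.3 to 766.9 at the 4-cell time, and that of 8 sperm and spermatid markers 1.175 to 4.37 against 11.36 to 42.56 and then 3.651 to 5.04 against 13.66 to 14.61. Of 8 fibroblast markers, Vim rose in mzKO at both times and 5 were below 1 FPKM in every mzKO library of both times. Of 11 cumulus and granulosa markers, 9 were below 1 FPKM in every wild-type and 8 in every mzKO late 2-cell library. Their part in the results for the mitochondrial ribosome was not tested.

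**Figure D1:**
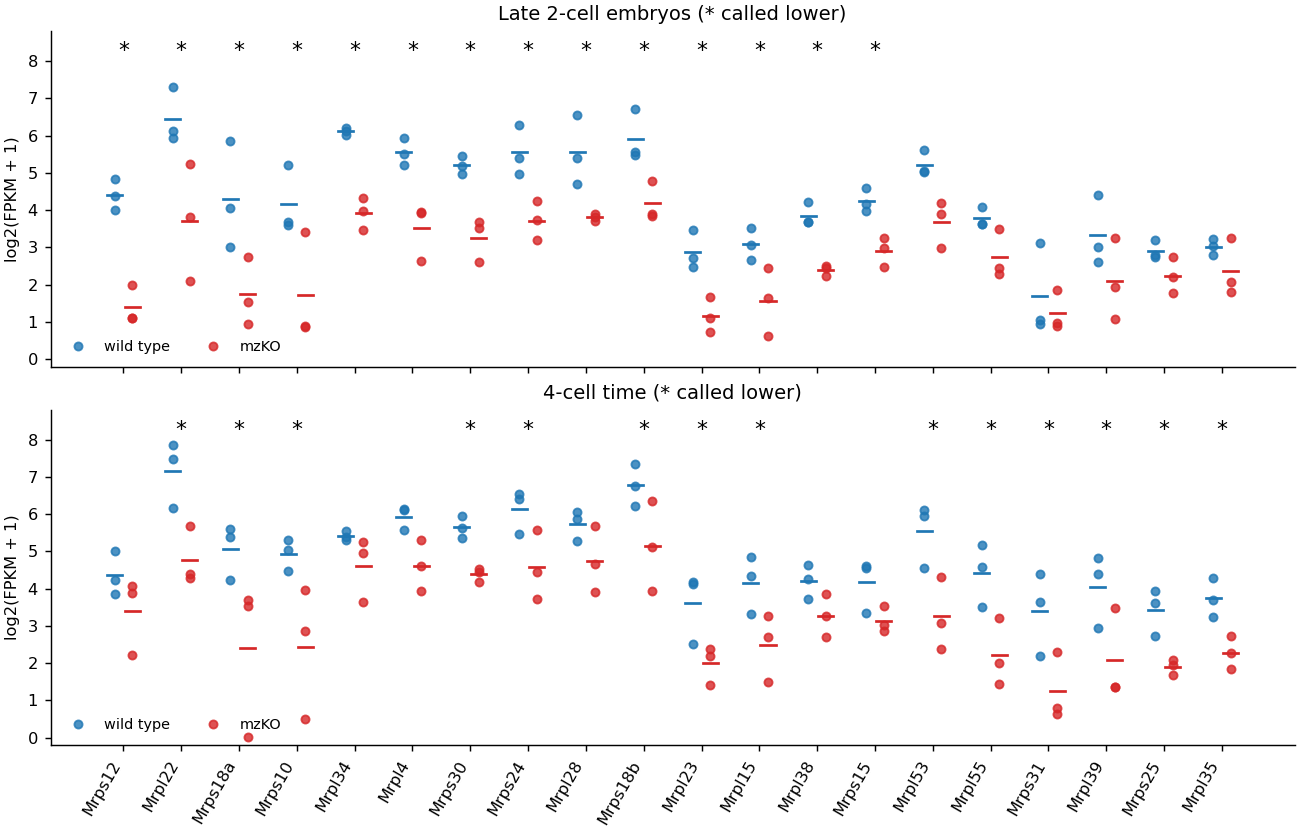
Level, as log2(FPKM + 1), of the 20 mitochondrial ribosomal protein genes called lower in Obox mzKO embryos at the late 2-cell or the 4-cell time. Dots are libraries (3 per group), bars are group means and asterisks mark called genes; Mrps12 was called at the late 2-cell time only, with mzKO libraries between 1.14 and 2.97 FPKM against 15.1 to 27.5 in wild type.

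Other parts of the mitochondrial gene expression system, from lists of genes chosen with earlier results known, also held members that fell in late 2-cell mzKO embryos. Of 27 genes for mitoribosome assembly and rRNA modification, 6 fell and none rose. Rpusd3, a pseudouridine synthase of mitochondrial rRNA, was at 0.391 FPKM in mzKO against 23.2 in wild type (log2 fold change -4.03, adjusted p = 9.48e-07). Trub2, another pseudouridine synthase, fell from 15.5 to 2.29, and Wbscr16, Mtg1, Rnmtl1 and Eral1 fell by 1.93, 1.61, 1.28 and 1.27 on the log2 scale. At the 4-cell time 6 of the 27 fell, Rpusd3 from 16.7 to 0.898 and Mterf3 from 27.5 to 7.33 among them, and Nsun4, an rRNA methyltransferase, rose from 7.12 to 25.0.

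Of 16 genes for mitochondrial transcription and mRNA stability, 3 fell at the late 2-cell stage. These were Tefm, the elongation factor, from 27.2 to 2.52 FPKM (log2 fold change -2.99, adjusted p = 7.99e-05), Polrmt, the mitochondrial RNA polymerase, from 10.65 to 1.10 (log2 fold change -2.56), and Fastkd5, from 9.97 to 2.61. Tefm, Polrmt, Fastkd5 and Lrpprc fell at the 4-cell time, while Supv3l1, an RNA helicase, rose from 11.6 to 40.7. Of 13 translation factors, Taco1 (10.2 to 2.26 FPKM) and Tufm, the elongation factor Tu (18.2 to 4.57), fell at the late 2-cell stage and Tufm and Pdf at the 4-cell time. Of 6 mitoribosome proteins under other names, none was called at the late 2-cell stage and Ict1, a peptide release factor built into the large subunit, fell at the 4-cell time (37.0 to 11.3). The libraries of the 2 genotypes overlapped at that time for Ict1 and Tufm.

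Protein import genes fell in 12 of 22 tested cases at the late 2-cell stage (median log2 fold change -1.42) and in 10 at the 4-cell time (-1.33). Cytosolic ribosomal proteins fell in 12 of 86 cases (median -1.14) and then in 31 (-1.39), and respiratory chain and ATP synthase subunits in 5 of 80 (-0.52) and then in 7, with 1 that rose. The median of the 77 mitochondrial ribosomal proteins, -0.63 and then -0.79, lay between those of the respiratory chain and the import genes.

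Oocytes and early 2-cell embryos without Obox showed no called member. In FGO, 0 of 77 genes passed and 0 had an unadjusted limma p under 0.05, with 0.0715% of all genes called. The member median FPKM was 15.45 and 8.507 in the wild-type FGO libraries and 15.13 and 10.97 in the Obox KO libraries. In MII oocytes 0 passed and 1 had an unadjusted p under 0.05 (Mrpl33, 15.7 FPKM in KO against 2.23, libraries overlapping), against 0.0572% of all genes called, and 63 of 77 fold changes were positive (median 0.38). Without wild-type replicate 1 or Obox KO replicate 1 that median was 0.06. In early 2-cell embryos 0 passed and 1 had an unadjusted p under 0.05 (Mrpl12, 10.3 FPKM in mzKO against 3.29, with no overlap), against 0.4% of all genes. The early 2-cell fold changes were positive for 68 of 77 genes, with a median of 0.35 against 0.21 over all genes. The direction rested on single libraries: the median was -0.45 without wild-type replicate 2, -0.09 without mzKO replicate 1 and 0.08 under median-of-ratios scaling.

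From the late 2-cell to the 4-cell time, 2 members rose in mzKO embryos, Mrps12 from 1.75 to 11.1 FPKM and Mrps5 from 0.602 to 3.99, against 6.12% of all genes called and 1.68% higher. In wild type 2 members rose over the same step, Mrps31 from 3.24 to 11.6 and Mrpl19 from 1.45 to 4.57, against 13.1% called and 1.77% higher. The libraries of the 2 stages overlapped for both wild-type genes and not for the 2 mzKO genes. No member differed between genotypes in this step (0 of 77 by limma, 2 with an unadjusted p under 0.05, and 1.17% of all genes called). Both counts were 0 with no filter on low values. The wild-type count was 0 without late 2-cell replicate 2 or 3 or 4-cell replicate 1 or 2, and the mzKO count was 0 without late 2-cell replicate 2 or 3 or 4-cell replicate 2.

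The mzKO embryos labelled as arrested at the 2-cell stage, collected at the blastocyst time, had very little of these transcripts. The 2 libraries listed 51 and 28 of the 77 genes at 0, and the member median was 0 and 0.1582 FPKM. Rn45s took 55.39% and 71.45% of these libraries. Of the 77 genes, 74 fell from the 4-cell time, against 61.5% of all genes called and 60.7% lower, with a median of -3.39 against -1.52. With equal sums without Rn45s 52 fell and 3 rose (5223 and 1928 of all genes, against 8490 and 112), and under median-of-ratios scaling 53 fell and 2 rose, with medians of -2.50 and -2.07. Mrps18b, for example, went from 42.9 to 0.951 FPKM (log2 fold change -4.30) and Mrpl22 from 29.4 to 0.422. Mrpl16 and Mrpl32 were called lower here, but arrested replicate 1 had 23.9 FPKM of Mrpl16 and 41.8 of Mrpl32, and both log2 fold changes turned positive (1.54 and 0.985) when libraries were set to equal sums without Rn45s.

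Embryos of the mzKO genotype named Obox157OE and Obox3OE had 1 library each and are described without a test. The transcripts they are named for were listed at 0 at this time: Obox1, Obox5 and Obox7 in Obox157OE, Obox3 in Obox3OE and Obox4 in Obox4OE. The arrested libraries had Obox3 at 59.7 and 0 FPKM. The member median was 44.45 FPKM in Obox157OE and 22.17 in Obox3OE, against 44.04 and 20.97 in the 2 wild-type blastocyst libraries. None of the 77 genes differed from the wild-type mean by more than 1 on the log2 scale in either, against 3.94% and 8.37% of all genes. Against the arrested mzKO libraries 76 of 77 were higher past that fold in each, with medians of 4.73 and 3.77, against 79.5% and 73.1% of all genes past it in either direction and 72.6% and 63.9% higher. Mrps12 was at 51.6 and 25.7 FPKM in the 2 libraries, between 55.0 and 21.0 in wild-type blastocysts.

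The Obox4OE library stood between. Its member median was 2.292 FPKM and 58 members reached 1 FPKM. All 77 genes were lower than in wild-type blastocysts past a log2 fold change of 1 (median -3.06, against 73.4% of all genes past it in either direction and 70% lower). Against the arrested libraries, 50 of the 64 genes at 1 FPKM or more were higher, with 1 lower, Mrpl16, against 55.2% of all genes in either direction, 37.2% higher and 18% lower. The 8 blastocyst markers summed to 37.38 FPKM in Obox4OE, 7.055 to 25.7 in the arrested libraries and 2683 to 4153 in wild-type blastocysts. The FPKM sum of the library was 58762.

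**Figure D2:**
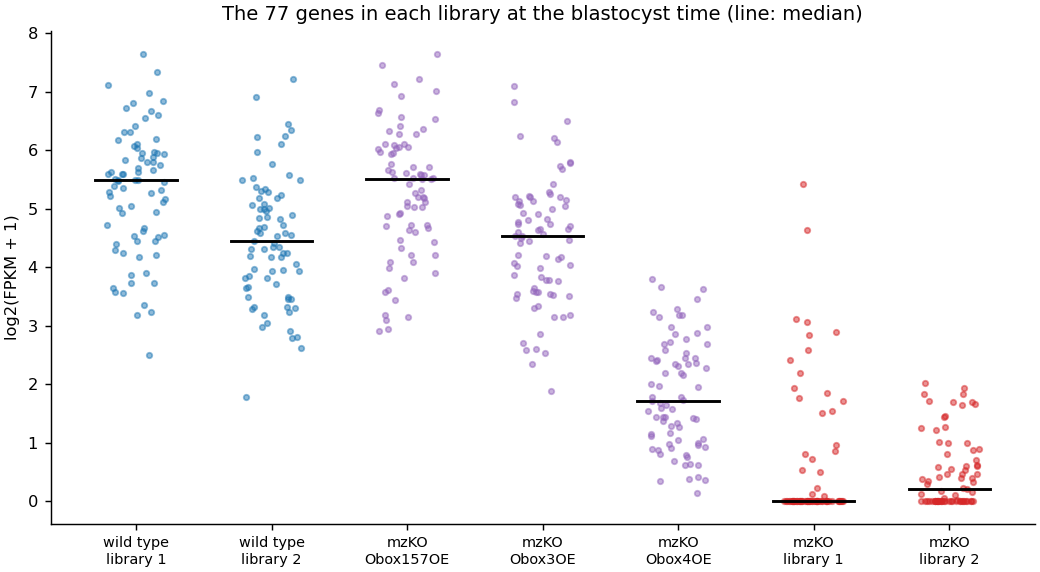
Level, as log2(FPKM + 1), of the 77 mitochondrial ribosomal protein genes in each library at the blastocyst time; each dot is a gene and the line is the library's median. In FPKM the medians were 44.04 and 20.97 in wild type, 44.45, 22.17 and 2.292 in mzKO with Obox157OE, Obox3OE and Obox4OE, and 0 and 0.1582 in arrested mzKO embryos.

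Late 2-cell embryos that lacked only the maternal copies (mKO) had lower values for all 76 members tested (Mrps5 was filtered out). By limma 47 of 76 fell, against 12.9% of all 10341 genes called and 11.4% lower, and the median log2 fold change was -1.525 against -0.48 over all genes. Mrpl33, a small large-subunit protein, was at 41.9 and 62.7 FPKM in the controls and at 3.34 and 1.72 in mKO (log2 fold change -3.93, SE 0.40, adjusted p = 0.0173). Mrps18a was at 32.3 and 51.9 against 2.18 and 1.92 (log2 fold change -3.78, adjusted p = 0.0173), and Mrps10 at 25.7 and 43.3 against 3.10 and 1.57 (log2 fold change -3.41, adjusted p = 0.0194). The groups were far apart in all 3 genes. Mrps34 fell from a mean of 15.6 to 1.05 FPKM, Mrpl23 from 22.2 to 2.19 and Mrpl39 from 15.5 to 1.47.

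Of the 14 genes that fell in late 2-cell mzKO embryos, 10 fell in mKO embryos too, 71.4% of that list and 21.3% of the 47. They were Mrpl4, Mrpl15, Mrpl22, Mrpl23, Mrpl28, Mrpl38, Mrps10, Mrps12, Mrps18a and Mrps18b. As 47 of the 76 members tested fell in mKO embryos, a high share is the background for any list of members. The count in mKO embryos depended on scale, and the libraries differed in FPKM sum (184488 and 179978 in mKO, 293375 and 291113 in controls). With libraries set to equal sums without Rn45s, or scaled by median-of-ratios, 0 of 76 passed and 2 and 0 of all genes did, and the member median was -0.88 and -0.96. The count was 4 without control replicate 1 and 2 without control replicate 2. The 9 genes of the 2-cell stage summed to 253.7 to 935.5 FPKM in mKO and 92.3 to 183 in control libraries, and their part in the result was not tested. In the single mKO blastocyst library none of the 77 genes differed from its control past a log2 fold change of 1, against 5.88% of all genes, with member medians of 63.12 and 58.8 FPKM.

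Between single embryos of the 2 genotypes, 1 of these genes was called, Mrpl39. Of the 73 members tested, 0 were called between Obox-- and Obox+- at the early 2-cell stage (0.461% of all genes were). Unadjusted, 19 had a limma p under 0.05, and 64 of 73 fold changes were positive (median 0.46, against 0.24 over all genes). With equal sums without Rn45s the member median was 0.23, against 0.06 over all genes. Under median-of-ratios scaling it was 0.20, against 0.01. At the late 2-cell stage 1 was called, against 0.632% of all genes and 0.401% lower. This was Mrpl39, a mitochondria-specific large-subunit protein, at 27.0, 19.6 and 18.4 FPKM in Obox+- and 10.8, 9.36, 7.28 and 6.68 in Obox-- embryos. The genotypes did not overlap (log2 fold change -1.25, SE 0.27, adjusted p = 0.04), but the call was lost without any 1 of the 3 Obox+- libraries, without Obox-- replicate 2, 3 or 4, with a pseudocount of 0.1 and with no filter. Mrps12 was at 1.37 to 3.98 FPKM in Obox+- and 2.09 to 3.69 in Obox-- late 2-cell embryos and was not called.

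Across wild-type stages the member median was 15.45 and 8.507 FPKM in the FGO libraries, 6.866 and 11.57 in MII, 7.151 and 1.434 in early 2-cell, 34.02, 19.58 and 18.06 in late 2-cell, 29.95, 39.92 and 14.18 in 4-cell embryos, and 44.04 and 20.97 in blastocysts. The lowest library was early 2-cell replicate 2, which also had the lowest FPKM sum of the wild-type series (132875) and reached 1 FPKM in 45 members only. Levels differed widely between members. Per length, Mrpl18, Mrpl40, Mrpl32, Mrps18b and Mrpl22 had the highest mean log2(FPKM + 1) over these libraries and Mrpl19, Mrpl11, Mrpl1, Mrpl17 and Mrps5 the lowest. In late 2-cell embryos Mrpl40 was at 124.4 ± 55.9 FPKM and Mrps5 at 0.906 ± 0.504 (SD, n = 3 each). In 4-cell embryos the range ran from Mrps5, at 3.65 ± 2.87, to Mrpl20, at 172.6 ± 77.8, and the top genes Mrpl20 and Mrpl22 (158.8 ± 81.2) did not differ beyond their spread.

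**Figure D3:**
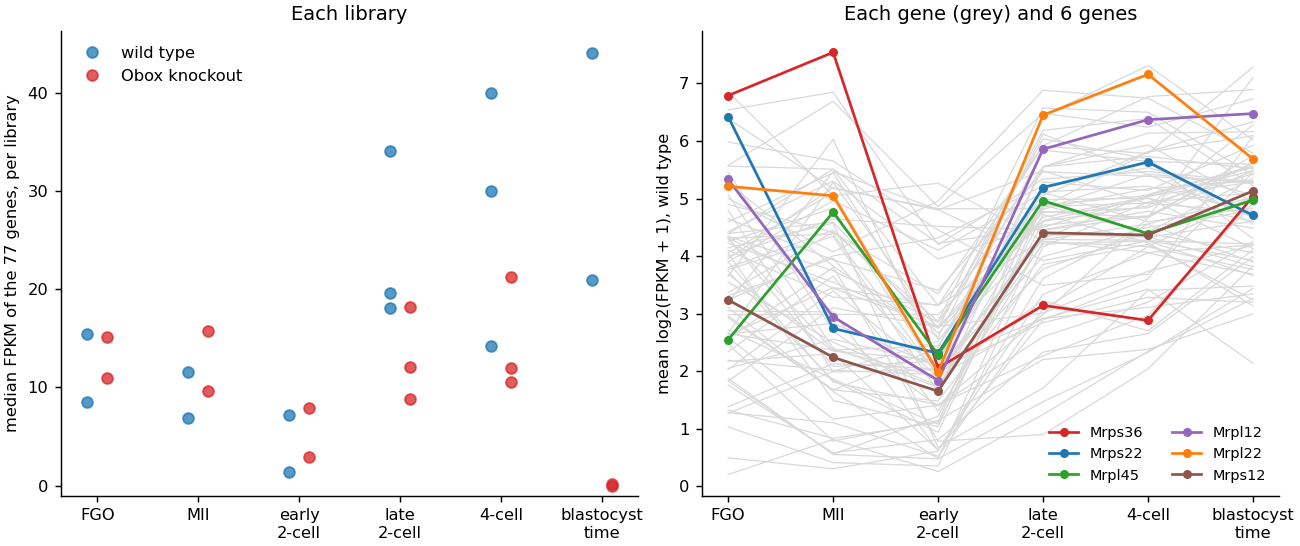
Left, median FPKM of the 77 genes in each library by stage, for wild type and Obox knockout; the wild-type late 2-cell libraries lie at 18.06 to 34.02 and the mzKO libraries at 8.864 to 18.18. Right, mean log2(FPKM + 1) of each gene over the wild-type libraries of a stage (grey), with Mrps36, Mrps22, Mrpl45, Mrpl12, Mrpl22 and Mrps12 in colour.

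Between FGO and MII oocytes, a period of largely silent transcription, 4 members rose and 10 fell, against 25.1% of all genes called, 22.9% higher and 2.24% lower. Mrps22, a small-subunit protein, had the largest fall, from 74.9 and 95.9 FPKM to 3.70 and 8.54 (log2 fold change -3.68, SE 0.72, adjusted p = 0.00394). Mrpl12 was at 45.5 and 33.9 and then at 6.20 and 7.24. In both genes all MII libraries lay well below the FGO libraries. Mrps18a, Mrpl14, Mrps18c, Mrpl33, Mrps25, Mrps35, Mrpl48 and Mrpl1 fell as well, by 1.68 (Mrpl1) to 2.81 (Mrps18a) on the log2 scale. The genes that rose were Mrpl44, Mrpl21, Mrpl3 and Mrpl45. Mrpl44 went from 10.1 and 2.61 FPKM to 38.7 and 37.2 (log2 fold change 2.62, SE 0.69, adjusted p = 0.0106), and Mrpl45 from 6.58 and 3.52 to 22.7 and 30.2.

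This oocyte step moved strongly with single libraries and with scaling. The count was 0 without FGO replicate 2 or without MII replicate 1, 8 without FGO replicate 1 and 3 without MII replicate 2. Under median-of-ratios scaling 2 members rose and 24 fell, and 417 genes in all rose and 996 fell, against 3197 and 314.

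From MII oocytes to early 2-cell embryos 18 members fell and none rose, against 21.6% of all genes called and 19.5% lower. Mrps36 changed most. It was named as a ribosomal protein but was later placed in the 2-oxoglutarate dehydrogenase complex, and it has pseudogenes whose reads could be split with it. Its FPKM was 123 and 97.6 in FGO, 167 and 205 in MII and 7.98 and 0.925 in early 2-cell embryos, with both embryo libraries far below all oocyte libraries (MII to early 2-cell log2 fold change -5.49, SE 0.72, adjusted p = 3.15e-06). It stayed at 5.96 to 12.9 in late 2-cell embryos and rose to 52.8 and 18.9 in blastocysts.

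The other 17 genes that fell after MII were Mrpl18, Mrpl21, Mrpl22, Mrpl28, Mrpl32, Mrpl37, Mrpl39, Mrpl42, Mrpl44, Mrpl45, Mrpl47, Mrps5, Mrps15, Mrps24, Mrps27, Mrps28 and Mrps31. Mrpl21, Mrpl44 and Mrpl45 had risen in the step before and now fell by 3.82, 2.54 and 2.48 on the log2 scale. Both steps use the same MII libraries, so the rise and the fall are not independent. The count was 31 without early 2-cell replicate 1, 4 without early 2-cell replicate 2 and 8 without MII replicate 2. The member median was -0.69 as deposited, -0.15 with equal sums and 0.08 under median-of-ratios scaling, and all genes had medians of -0.44, -0.04 and 0. With equal sums 8 members fell, and 1005 of all genes fell and 399 rose. Under median-of-ratios scaling 10 members fell and 1 rose, and 1116 of all genes fell and 772 rose.

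The late 2-cell stage brought the broadest change: 50 of 77 members rose from the early 2-cell stage and none fell, against 37.4% of all genes called and 34.2% higher. The median log2 fold change was 2.26, against 0.72 over all genes, and 33 of 48 Mrpl and 17 of 29 Mrps genes rose. Under median-of-ratios scaling 34 rose and 3 fell, with a median of 1.20 (2343 and 1617 of all genes, against 4789 and 442). With equal sums 46 rose and 1 fell (3879 and 605 of all genes). For all 50 the early and late libraries did not overlap, which is no separate support, since the 50 were called on these libraries. Mrpl20 was at 4.68 and 2.34 FPKM in early and at 155, 67.3 and 59.7 in late 2-cell embryos (log2 fold change 4.31, SE 0.63, adjusted p = 5.99e-06). Mrpl43 was at 1.29 and 1.04 and then at 42.3, 33.3 and 39.1 (log2 fold change 4.17, SE 0.48, adjusted p = 4.68e-07). Both were low in oocytes too, Mrpl20 at 2.37 to 6.46 FPKM and Mrpl43 at no more than 2.17.

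Mrpl22 rose from 9.62 and 0.472 FPKM to the late 2-cell values given above (log2 fold change 4.47, SE 0.79, adjusted p = 6.48e-05), and Mrpl12 from 5.64 and 0.928 to 107, 48.8 and 35.4. Both had stood at higher levels in FGO. Mrpl33, Mrpl52, Mrpl54, Mrps24, Mrps10, Mrps6, Mrpl28, Mrpl34, Mrpl27, Mrpl41 and Mrpl51 completed the 15 largest rises, from 3.44 for Mrpl51 to 4.02 for Mrpl33 on the log2 scale. Mrpl3 was not called, at 51.7 and 14.0 FPKM early and 16.4, 12.1 and 14.3 late, nor were Mrpl10, Mrpl11, Mrps27 and Mrps36. Without early 2-cell replicate 2 the count was 28. Cytosolic ribosomal proteins rose in 83 of 86 cases, respiratory chain and ATP synthase subunits in 55 of 80 and import genes in 16 of 22.

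From the 4-cell stage to the blastocyst 6 members rose and 1 fell, against 28.3% of all genes called, 10.5% higher and 17.7% lower. Mrpl23 went from a mean of 12.7 to 75.8 FPKM, Mrpl36 from 27.6 to 136.8, Mrps36 from 9.01 to 35.9, Mrps35 from 7.26 to 31.7, Mrps5 from 3.65 to 13.3 and Mrpl17 from 5.44 to 15.0, while Mrps30 fell from 49.7 to 19.4. The direction depended on scale: 2 rose and 8 fell with equal sums, and 21 rose and none fell under median-of-ratios scaling. Of all genes 890 rose and 3193 fell with equal sums, and 2319 rose and 1627 fell under median-of-ratios scaling. The count was 2 without blastocyst replicate 1 and 4 without blastocyst replicate 2 or 4-cell replicate 3.

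Single Obox+- embryos showed both rises and falls between the early and late 2-cell stages. Of 73 members tested, 22 rose and 18 fell (49.3% of all genes were called, 28% higher and 21.3% lower), with a median of 0.21 against 0.16 over all genes. The shift was large for single genes. Mrps6 was at 14.1, 9.07 and 14.6 FPKM in early and at 156, 276 and 246 in late embryos (log2 fold change 4.05, SE 0.27, adjusted p = 1.17e-09). Mrps14 was at 21.1, 27.0 and 25.8 and then at 0.0831, 0.058 and 0.0874 (log2 fold change -4.57, SE 0.33, adjusted p = 3.49e-09). The replicates of each stage were close and the stages far apart in both genes.

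Mrpl39 rose from 0.251 to 21.7 FPKM in Obox+- embryos, Mrpl4 from 6.49 to 64.3, Mrpl2 from 8.89 to 82.3, Mrpl22 from 4.51 to 41.4 and Mrps30 and Mrpl38 by 2.59 each on the log2 scale. Mrpl18 fell from 26.95 to 1.24, and Mrpl24, Mrps33, Mrpl53 and Mrpl40 fell by 3.33, 2.97, 2.47 and 2.02. In Obox-- embryos 20 rose and 21 fell (50.6% of all genes called, 25.8% higher and 24.8% lower), and all 18 genes that fell in Obox+- embryos were among the 21. Of the 22 that rose, 16 rose in Obox-- embryos too, 72.7% of 22 and 80% of 20. Both steps come from the same fit and the overlap over all genes was not counted, so these shares have no background beside them.

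The single-embryo and wild-type series shared 16 rising members, 32% of the 50 and 72.7% of the 22. As 50 of the 77 members rose in the wild-type series, a high share of the 22 is the background. Another 9, 18% of the 50 and 50% of the 18, rose in the wild-type series and fell in Obox+- embryos: Mrpl12, Mrpl18, Mrpl34, Mrpl40, Mrpl46, Mrpl55, Mrpl57, Mrps16 and Mrps18c. For Mrps18c the early and late Obox+- libraries overlapped. Over the 73 genes the 2 sets of log2 fold changes had a Pearson r of 0.35 and a Spearman rho of 0.27, across genes that share their libraries and are not independent. The single embryos differ from the series in genotype and library, and Rn45s took 20.07% to 24.37% of the single late 2-cell libraries and 3.236% to 7.436% of the early ones. Its part in the difference was not tested. The tables were normalized separately, so levels are not compared between them.

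**Figure D4:**
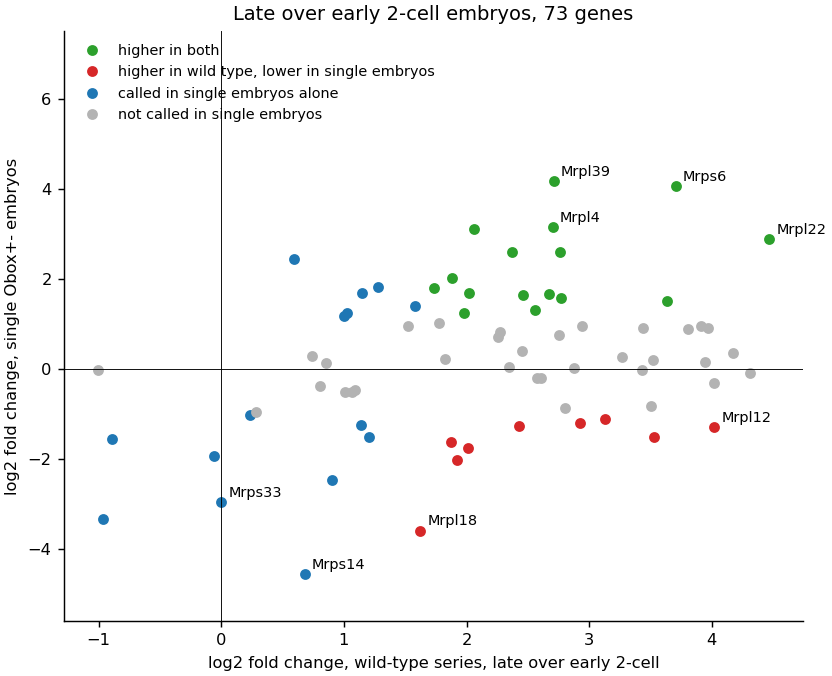
Log2 fold change from the early to the late 2-cell stage of 73 mitochondrial ribosomal protein genes in the wild-type series (horizontal) and in single Obox+- embryos (vertical); green is called higher in both, red higher in the first and lower in the second, blue called in single embryos alone and grey not called in single embryos. Points far below the zero line include Mrps14 (-4.57) and Mrpl18 (-3.60); the 9 red genes lie in the lower right.

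Knockdown of Obox genes gave no called member by limma. In late 2-cell parthenotes the counts were 0 of 77 for siObox12mix (1 with an unadjusted limma p under 0.05, Mrpl38, 1.64 against 5.19 FPKM), siObox5 (0) and siObox7 (0), where 0.0233%, 0.0233% and 0.00776% of all genes were called. After siObox12mix 59 of 77 fold changes were negative, with a median of -0.26. For siObox4 at the early 2-cell stage 0 were called and 0 had an unadjusted p under 0.05 (0.00776% of all genes called). At the 4-cell stage siObox6 gave 0 calls and 1 unadjusted p under 0.05 (Mrpl24, 25.5 against 7.11 FPKM), with 73 of 77 fold changes positive (median 0.60), and siObox8 gave 0 and 0, with 66 of 77 negative (median -0.32). Of all genes 0.0699% and 0% were called. Both directions rested on single libraries: for siObox6 the median was 0.04 without siCtrl replicate 3, and for siObox8 it was 0.47 without siObox8 replicate 2, -1.11 without its replicate 1 and -0.04 without siCtrl replicate 2. The member median FPKM was 11.68 in siCtrl replicate 3 and 34.52 and 44.85 in the other siCtrl libraries, and it was 10.57 in siObox8 replicate 2 and 40.9 in replicate 1.

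The siObox3 late 2-cell library was compared with 1 control library and not tested. Past a log2 fold change of 1, 9 of 73 members were lower and 1 was higher, Mrpl23, against 9.55% of all genes in either direction, 7.59% lower and 1.96% higher. Mrpl12 was at 12.3 FPKM against 36.9 in the control, and Mrps2, Mrps10, Mrps18a and Mrps34 were among the lower genes. The member median was 11.12 against 15.1 FPKM.

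In mESC with GFP the lowest member was Mrpl41, with a mean of 9.84 FPKM, and the highest Mrpl42, at 253.1 ± 124 (SD, n = 5). The member median of a library ran from 29.47 to 81.12 (median 43.03) with GFP, 29.51 to 74.5 with Obox3 and 26.95 to 84.65 with Obox5. Obox3 gave 0 calls, 1 unadjusted limma p under 0.05 and a median of -0.02, with 3.02% of all genes called. Obox5 gave 0 calls, 0 unadjusted p under 0.05 and a median of 0.11, with 2.18% called. Replicate numbers were taken to pair these libraries, but this fit had no replicate block. With the block the medians were -0.19 and -0.05, against -0.135 and -0.023 over all genes.

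In Nr5a2 KO against wild-type mESC, both with GFP, 0 members were called and 1 had an unadjusted p under 0.05 (Mrps12, 45.6 against 103.1 FPKM, with no overlap; 2.04% of all genes called). Obox3 in wild-type and Nr5a2 KO cells gave 0 and 0 calls, with 5 and 2 unadjusted p under 0.05 and 0.935% and 3.56% of all genes called. Obox5 gave 0 and 0 calls, with 0 and 0 unadjusted p under 0.05 and 0.663% and 0.935% of all genes. Fold changes for Obox3 were negative for 72 of 77 genes in wild-type cells, but the median of -0.39 was close to that of all genes (-0.48) and turned to 0.20 under median-of-ratios scaling and 0.02 without Obox3 replicate 1. In Nr5a2 KO cells 57 of 77 were positive (median 0.16), and the median was -0.15 without GFP replicate 1. The test of that difference called 0 of 77 (0 with an unadjusted p under 0.05; 0.102% of all genes), with a median of 0.61 against 0.52 over all genes and -0.07 under median-of-ratios scaling, and that for Obox5 called 0 (0; 0.0085%).

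Overexpression in wild-type embryos had 1 library a group and was not tested. At the late 2-cell stage the injected gene was at 532.8 FPKM with Obox1, 50.8 with Obox2, 71.8 with Obox3 and 68.2 with Obox5, against 12.85, 15.5, 39.9 and 37.7 with H2O. At the blastocyst stage it was at 3.37, 0.211, 0.135 and 0. At the late 2-cell stage the number of members lower than with H2O past a log2 fold change of 1 was 25 of 76 for Obox1 (median -0.75), 4 for Obox2, 3 for Obox3 and 2 of 74 for Obox5, and none was higher. Of all genes 16.7%, 3.75%, 6.1% and 5.62% passed that fold in either direction, and 14.3%, 2.81%, 3.11% and 2.24% were lower past it. With Obox1, Mrps10 was at 0.609 FPKM against 7.92 with H2O and Mrpl9 at 4.18 against 25.9. This Obox1 library had an FPKM sum of 132770, against 182213 with H2O, Rn45s took 12.36% against 6.238%, and 8 stem cell markers summed to 78.3 against 463.8 FPKM, and their part in the lower values was not tested. At the blastocyst stage all 77 were lower with Obox1, 44 of them past the fold (median -1.11; 49.1% of all genes, 42.5% lower), and none passed it with Obox2, Obox3 or Obox5 (5.26%, 6.25% and 4.67%). That Obox1 library, labelled blastocyst, had 412 FPKM of 8 summed blastocyst markers against 3286 with H2O, and 665.6 of 9 summed 2-cell genes against 1.712. Their part in the lower values was not tested.

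**Figure D5:**
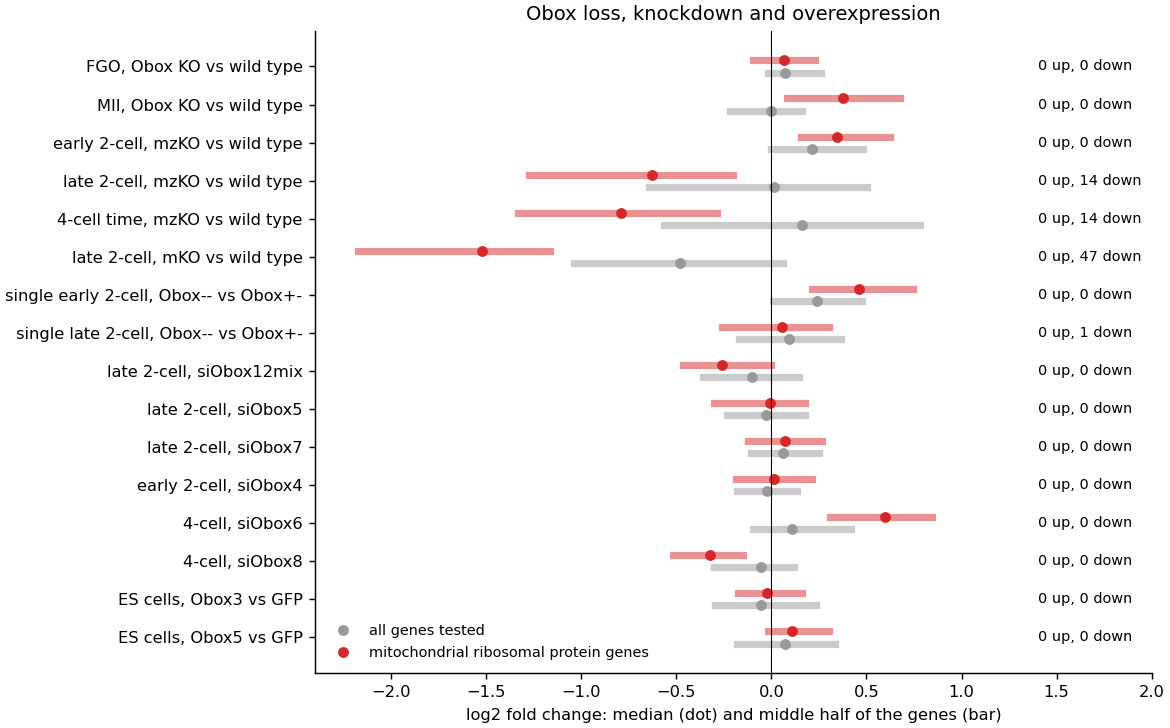
Median (dot) and interquartile range (line) of the log2 fold changes of the mitochondrial ribosomal protein genes and of all genes tested in 16 comparisons, with the numbers of members called higher and lower at the right. The member median was farthest below that of all genes among the knockout comparisons in mKO late 2-cell embryos (-1.525 against -0.48).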

How the data were processed

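RNA-seq libraries (Smart-seq2) of mouse oocytes, embryos and stem cells were analysed from the FPKM values per gene that the authors deposited in 7 tables. The build mm9 and, without roles, StringTie 2.1.2, HISAT2 2.2.1, Picard, Bowtie2 2.3.5, Trim Galore 0.6.6 and deepTools 3.3.1 are given by the submitters' processing notes. FPKM is a share of a library, and the tables were treated as normalized separately. Read counts were not given; among genes under 0.3 FPKM the commonest ratio between 2 libraries held 0.432 to 3.09% of genes over 100 library pairs, so whole reads could not be recovered and the depth is unknown.

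Of 24143 names, 27 that read as dates were left out. Groups followed the labels (107 libraries of 135 samples; the other 28 were not analysed here). Each table with replicated groups was fitted once with limma 3.58.1 (eBayes with trend and robust) in R 4.3.3, on log2(FPKM + 1), over genes at 1 FPKM or more in at least 2 fitted libraries. Calls needed a Benjamini-Hochberg adjusted p under 0.05 over all genes tested and a log2 fold change of at least 1 in size. There were 30 comparisons of 2 groups and 3 contrasts of contrasts. The fits were tested on simulated data. Single libraries were compared by fold only. Python 3.11.15, pandas 2.3.3, numpy 2.4.6 and matplotlib 3.10.9 did the rest.

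The genes named were those called in the mzKO and wild-type comparisons (up to 15 each way by fold size), up to 6 each way elsewhere, the 5 highest and 5 lowest over wild-type libraries, 19 with known roles, and called members of the other lists (up to 6 each way); the others named were chosen after their values were seen. The members and lists were chosen with earlier results of these data known. Replicate numbers were checked for pairing by correlating deviations from group means. Numbers were taken to pair libraries where at least 3 pairs all had a correlation over 0.1, which held for stem cells with Obox3 (0.276 to 0.674) and Obox5 (0.414 to 0.637) against GFP. Of the members, 20 overlap another gene that the tables also list and 4 have pseudogenes (Mrpl23, Mrpl27, Mrpl48 and Mrps36), so their values are less certain. Alternatives were another pseudocount, no filter, other scalings, a replicate block, fits of only the groups compared, and each library left out.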

Additional observations from a re-analysis of the deposited data

Results flagged for a closer look

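For 8 genes every late 2-cell library lay above the early 2-cell libraries in the wild-type series and below them in single Obox+- embryos. The log2 fold changes in single embryos and in the wild-type series were -1.30 and 4.02 for Mrpl12, -3.60 and 1.62 for Mrpl18, -1.51 and 3.52 for Mrpl34, and -2.02 and 1.92 for Mrpl40. They were -1.21 and 2.92 for Mrpl46, -1.63 and 1.87 for Mrpl55, -1.27 and 2.43 for Mrpl57, and -1.77 and 2.01 for Mrps16. The difference between the 2 sets of embryos was not tested, since the tables were normalized separately. The check of outlying values could be run only for Obox-- late 2-cell embryos and the stem cells with GFP, Obox3 or Obox5, and it singled out no library there.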

How the results depend on the processing

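Numbers below are members called. Counts over all genes under the same settings are given above for some scalings only. Elsewhere the numbers do not show whether members moved apart from the background. With a pseudocount of 0.1 they were 5 for mzKO at the late 2-cell and 7 at the 4-cell time, 7 from FGO to MII, 0 from late 2-cell to 4-cell, 2 from 4-cell to blastocyst, 1 for the mzKO late 2-cell to 4-cell step, 26 for mKO and 0 for single late 2-cell embryos. With no filter they were 8 (late 2-cell mzKO), 9 (FGO to MII), and 0 for both late 2-cell to 4-cell steps, mKO and single late 2-cell embryos. With equal sums without Rn45s they were 8 (4-cell mzKO), 1 (late 2-cell to 4-cell), 8 (MII to early 2-cell), 0 (mKO) and 2 (single late 2-cell). With median-of-ratios scaling they were 26 (FGO to MII), 11 (MII to early 2-cell), 21 (4-cell to blastocyst), 0 (mKO), 2 (single late 2-cell) and 1 (Obox3 in Nr5a2 KO cells). With only the groups compared they were 12 (4-cell to blastocyst), 1 (late 2-cell to 4-cell), 7 (MII to early 2-cell), 0 (mzKO step) and 0 (single late 2-cell). The causes were not tested.

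With the replicate block the count was 1 for Nr5a2 KO against wild type and 0 for single late 2-cell embryos, and it moved no other count by over 1.5 times. Within stage, a block chosen after seeing the data gave 24 (4-cell mzKO), 20 (late 2-cell mzKO) and 0 (single late 2-cell). With 3 pairs the lowest correlation was 0.070 at the late 2-cell and 0.097 at the 4-cell time. With 2 pairs, too few to decide, it was over 0.1 for FGO (0.621), early 2-cell mzKO (0.655), siObox4 (0.688), siObox6 (0.462), wild-type early to late 2-cell (0.136) and the Nr5a2 comparisons (0.143 to 0.471); the block took the siObox6 median from 0.60 to 0.30, and within stage to 0.04. Crossed pairings were tried for MII (-0.316), MII to early 2-cell (-0.139) and mKO (-0.157).

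Without early 2-cell replicate 2, late 2-cell replicate 1 and 4-cell replicate 3 of wild type, a choice made after seeing the data, the counts were 4 (late 2-cell mzKO), 26 (4-cell mzKO), 21 (early to late 2-cell), 7 (late 2-cell to 4-cell), 3 (MII to early 2-cell) and 1 (genotype by step). With 1 library left out the ranges were 3 to 11 (late 2-cell mzKO), 2 to 21 (4-cell mzKO), 0 to 8 (FGO to MII), 4 to 31 (MII to early 2-cell), 28 to 63 (early to late 2-cell), 0 to 2 (late 2-cell to 4-cell), 2 to 7 (4-cell to blastocyst), 0 to 2 (mzKO step), 64 to 75 (arrested), 2 to 59 (mKO), 0 to 1 (each single-embryo genotype comparison), 38 to 42 (single Obox+- step) and 39 to 44 (single Obox-- step). Where this left 1 library in a group, it was assumed to vary like the other groups. Leaving out a library lowers the power for every gene, and the counts over all genes are not given here. From the 4-cell time to arrest, Mrpl16 turned to 1.54 with equal sums and 1.35 with median-of-ratios scaling, and Mrpl32 to 0.985 and 0.81, and to 0.12 without arrested replicate 2 (-4.04 without replicate 1). With 2 or 3 libraries a group and no read counts, low genes are the least certain.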
